A study of Mus musculus with 4 samples.

Results

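The Zfp genes of the mouse were described here as the annotation table of the series holds them. Members were all rows on the assembled chromosomes (1 to 19, X and Y) whose name begins with Zfp and a digit. The rule found 860 transcript rows of 403 gene symbols, or 1.54% of the 26125 gene symbols on these chromosomes. The name means zinc finger protein, and 395 of the 403 symbols had a coding row. The other 8 had none, namely the opposite-strand genes Zfp652os, Zfp85os and Zfp335os, the pseudogenes Zfp389, Zfp572, Zfp133-ps and Zfp862-ps, and Zfp783, which the reference table lists as a long non-coding RNA gene. The libraries of the series come from the mouse embryonic stem cell line C64 and were made by CUT&Tag, which inserts sequencing adapters beside an antibody-bound protein, here RNA polymerase I (Pol I). It had 2 control libraries without treatment and 2 libraries from cells kept for 6 h in 500 nM auxin, a plant hormone used to degrade proteins that carry a degron. The labels used here name no degron-tagged protein and do not say whether replicates were separate cultures. The annotation table has no column for a library, so Pol I occupancy over the Zfp genes was not analysed here and the groups were not compared.

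Most zinc finger proteins bind DNA through C2H2 fingers, short folds in which cysteine and histidine side chains hold a zinc ion, and a protein often carries many fingers in a row. A large group of them also has an N-terminal KRAB domain, which recruits the corepressor Trim28 and, through it, heterochromatin factors such as Setdb1. In embryonic stem cells many KRAB zinc finger proteins silence retroviral elements, and Zfp57 keeps DNA methylation at imprinted genes. In a typical KRAB zinc finger gene the KRAB A box lies on a short exon of its own and all fingers lie on a long last coding exon.

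Promoter windows from RefSeq (build GRCm38.p6) could be matched to 332 of the 403 members. In all 402 windows of members the transcription start, 250 bases into the window, was the start of a row of the same symbol, so the table's mm10 positions and those windows share their coordinates. The sequences below run from 250 bases before a gene's start to the last base before it. They were chosen after the values were seen, to show genes with an equal or similar window elsewhere on their chromosome, and isolated genes without one. Capitals mark CG dinucleotides, which read the same on both strands. No exon of any row lay in these windows.

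Zfp955a: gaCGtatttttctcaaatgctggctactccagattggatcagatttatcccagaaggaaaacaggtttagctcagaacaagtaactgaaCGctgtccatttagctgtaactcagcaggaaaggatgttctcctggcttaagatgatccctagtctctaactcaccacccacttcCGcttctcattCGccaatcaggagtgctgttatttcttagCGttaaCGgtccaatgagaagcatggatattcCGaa
Zfp966: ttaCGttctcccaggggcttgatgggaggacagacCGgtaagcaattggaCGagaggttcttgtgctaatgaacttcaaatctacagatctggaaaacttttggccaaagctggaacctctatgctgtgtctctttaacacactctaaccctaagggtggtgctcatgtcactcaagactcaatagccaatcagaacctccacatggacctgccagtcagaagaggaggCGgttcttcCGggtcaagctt
Zfp968: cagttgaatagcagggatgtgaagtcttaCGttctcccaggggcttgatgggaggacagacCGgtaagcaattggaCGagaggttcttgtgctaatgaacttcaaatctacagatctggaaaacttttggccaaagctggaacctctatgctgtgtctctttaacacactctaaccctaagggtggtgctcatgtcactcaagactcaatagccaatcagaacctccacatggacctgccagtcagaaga
Zfp281: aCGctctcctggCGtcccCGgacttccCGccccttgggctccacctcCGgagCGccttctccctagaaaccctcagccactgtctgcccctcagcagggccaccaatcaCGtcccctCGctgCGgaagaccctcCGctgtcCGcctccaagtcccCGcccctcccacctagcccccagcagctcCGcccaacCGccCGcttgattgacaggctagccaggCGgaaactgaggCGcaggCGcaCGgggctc
Zfp42: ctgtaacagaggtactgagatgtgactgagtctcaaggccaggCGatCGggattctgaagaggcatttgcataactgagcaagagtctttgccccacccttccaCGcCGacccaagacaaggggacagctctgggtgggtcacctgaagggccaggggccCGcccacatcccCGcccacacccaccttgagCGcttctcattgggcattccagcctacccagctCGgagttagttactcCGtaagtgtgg

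The Zfp955a window (chr17:33255146-33255395, minus strand) was equal, base for base, to that of its neighbour Zfp955b (chr17:33289294-33289543, plus strand). Likewise the Zfp966 window (chr2:175931101-175931350, minus strand) was equal to that of Zfp967 (chr2:176520754-176521003, plus strand), a gene in another cluster. The Zfp968 window (chr2:175372186-175372435, plus strand) held 3 CG and matched the Zfp966 window, which held 5, at 89.6% of its 250 bases. From its first ttaCG to its end, the Zfp968 window equals the first part of the Zfp966 window base for base. The windows are thus shifted copies that end at different annotated starts. The CG found only in the Zfp966 window lie after the common stretch. The Zfp968 window matched that of Zfp973 (chr2:176670272-176670521, plus strand) at 99.6%. The isolated Zfp281 (chr1:136624651-136624900, plus strand) encodes a regulator of pluripotency, and its window held 19 CG. Zfp42 (chr8:43307010-43307259, minus strand) encodes Rex1, a marker of undifferentiated stem cells, and its window held 9. The windows of Zfp281 and Zfp42 matched each other at 54.4%, beside a median of 52.0% for pairs of 300-base windows from different clusters or with an isolated member.

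Members were mostly found side by side. When neighbours with a gap under 500 kb were joined, 275 members (68.2%) lay in 52 clusters and 128 (31.8%) were isolated. Members without a coding row counted as neighbours too. The pair of Zfp652 and its opposite-strand gene Zfp652os thus had 1 coding member, as did the pair of Zfp184 and the pseudogene Zfp389. Cluster sizes were uneven, since 17 clusters were pairs and 36 had 5 members or fewer, whereas 7 clusters had 10 or more and together held 110 members. The median gap between neighbours inside clusters was 23961 bases. Of 383 pairs of neighbours on a chromosome, 57 were under 10 kb apart, 122 were 10 to 100 kb apart and 44 were 100 to 500 kb apart. Only 16 gaps fell between 500 kb and 1 Mb, while 144 were 1 Mb or longer. Just inside the limit were Zfp575 and Zfp574 on chromosome 7, 488032 bases apart, and Zfp975 and Zfp936 on the same chromosome, 484871 bases apart. Just outside it were Zfp239 and Zfp248 on chromosome 6 (554552 bases) and Zfp39 and Zfp867 on chromosome 11 (556971 bases). With a limit of 100 kb, 234 members were clustered, and with 1 Mb, 290.

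Chromosomes 7, 17 and 13 carried 177 members (43.9%), although they hold 17.5% of all gene symbols. Chromosome 7 alone had 93 members (23.1%), of which 82 were clustered in 10 clusters, against 8.81% of all symbols. Chromosome 17 had 46 members (11.4%) and chromosome 13 had 38 (9.43%), with 41 and 31 of them clustered. These shares were 2.62, 2.36 and 2.44 times those of all symbols. Chromosomes 1, 3, 12, 14 and 19 had 3 to 6 members each and no cluster, and the Y chromosome had 0. No test is given for this or for any later comparison, because the coordinates carry no replicate error and neighbouring genes are not independent observations.

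**Figure D1:**
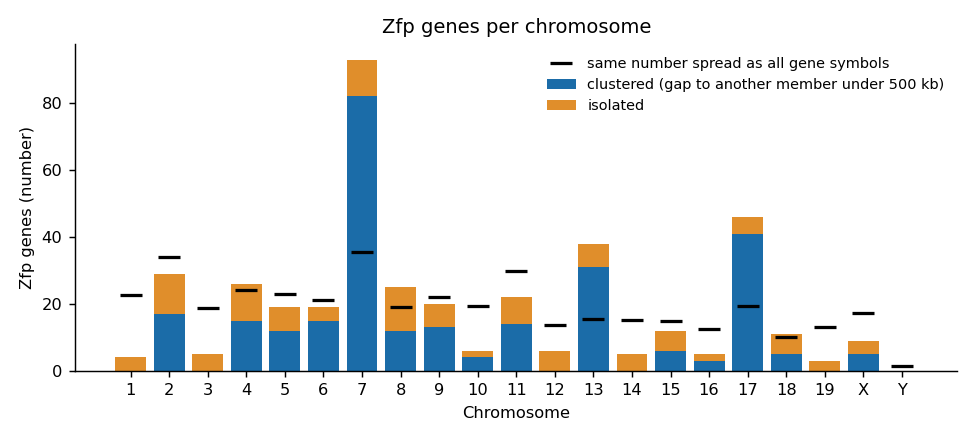
Number of Zfp genes on each chromosome, split into clustered (blue) and isolated (orange); black dashes show the number if the 403 genes were spread as all gene symbols are. Chromosome 7 stands out with 93 genes, 82 of them clustered, followed by chromosomes 17 and 13.

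The largest cluster lay on chromosome 13 (67038594 to 67827000), with 24 members in 788407 bases from Zfp712 to Zfp273. In it 19 members lay on the minus strand, 16 of them in an unbroken run. The second, on chromosome 17 (21008941 to 23599487, Zfp160 to Zfp13), had 23 members in 2590547 bases, at 8.88 members per Mb against 30.4 in the chromosome 13 cluster. The densest of the 6 largest was on chromosome 7 (29768552 to 30169741, Zfp84 to Zfp146), with 15 members in 401190 bases and no other coding gene between them. This cluster holds Zfp568, which represses a placental transcript of Igf2. The next were a cluster of 14 on chromosome 7 (24081897 to 25227495, Zfp180 to Zfp526), 1 of 13 on chromosome 17 (32765496 to 33631716, Zfp871 to Zfp414) and 1 of 11 on chromosome 6 (47819266 to 48621548, Zfp786 to Zfp775). The chromosome 7 cluster of 14 was the least pure of these, since 30 other coding genes lay inside its bounds. Those bounds rest on the 500 kb limit, since they include the gap of 488032 bases between Zfp575 and Zfp574. Over all 223 pairs of neighbours in clusters, 134 (60.1%) had both genes on the same strand, against 50.1% of neighbouring loci in the whole annotation. The pairs are not alike, since other genes may lie between Zfp neighbours, whereas the whole annotation was taken locus by locus with non-coding genes included.

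**Figure D2:**
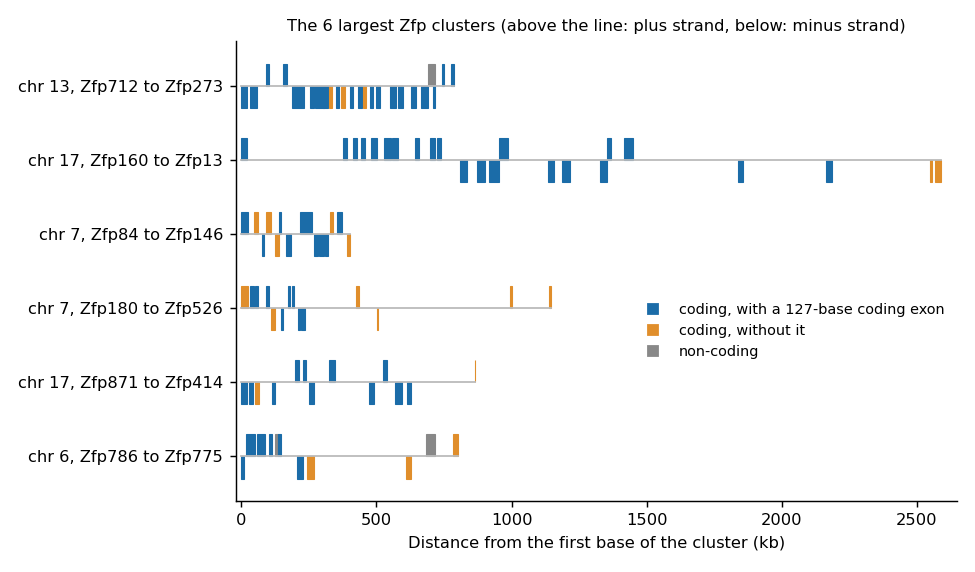
The 6 largest clusters, drawn to scale as distance in kb from the first base of each; boxes above a line are genes on the plus strand and boxes below it on the minus strand, blue with a 127-base coding exon, orange without, grey for non-coding genes. The chromosome 13 cluster packs 24 genes into 788407 bases, most of them on the minus strand, while the chromosome 17 cluster spreads 23 genes over 2590547 bases.

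Some members touched each other. Zfp978 on chromosome 4 spanned 267146 bases and covered Zfp991 and Zfp988 on the same strand, so signal over these rows cannot be given to a single gene from the table alone. Zfp595 and Zfp953 on chromosome 13 also overlapped on the same strand. Some pairs started close together in opposite directions. Zfp944 and Zfp758 started 52 bases apart, and Zfp942 and Zfp943 started 94 bases apart, all on chromosome 17. In all, 32 members had an opposite-strand gene starting within 1000 bases upstream, among them Zfp148. They were 17 clustered (6.18%) and 15 isolated members (11.7%). At least 1 base was shared with another symbol by 52 members. Of clustered members 29 (10.5%) shared a base with another symbol, and of isolated members 23 (18.0%). Neither count was made over all gene symbols, so neither can be read as particular to Zfp genes.

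The coding part of members was short in exon number and concentrated at its end. Values are for the row with the longest coding part of each gene. The 395 coding members had a median of 4 coding exons, against 7 in the 20597 other coding genes, although their median coding length was longer (1722 against 1200 bases). The last coding exon held a median of 85.8% of coding bases in members and 15.9% in other coding genes. In 259 members (65.6%) it held at least 80%, as it did in 3717 other coding genes (18.0%). The median last coding exon had 1347 coding bases in members and 177 in other genes. A single coding exon was found in 40 members (10.1%) and 3196 other genes (15.5%).

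Clustered and isolated members differed in this layout. In the 269 clustered coding members the last coding exon held a median of 86.7% of coding bases (quartiles 80.5% and 89.9%). In the 126 isolated members the median was 54.9% and the upper quartile 89.5%. The isolated members lay towards both ends, as 51 of them (40.5%) had at least 80% and 44 (34.9%) had under 20%, whereas among clustered members these were 208 (77.3%) and 10 (3.72%). With a gap limit of 100 kb the isolated coding members numbered 166, since formerly clustered genes joined them, and the isolated median became 78.9% and the difference of medians went from 31.8 to 7.81 percentage points, while the share with at least 80% stayed apart, at 77.7% of clustered and 48.8% of isolated members. More than 10 coding exons were seen in 20 isolated members (15.9%) and 5 clustered members (1.86%). The median number of coding exons hardly differed, at 4 and 4.5. Isolated members spanned more, with medians of 21584 and 15226 bases.

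**Figure D3:**
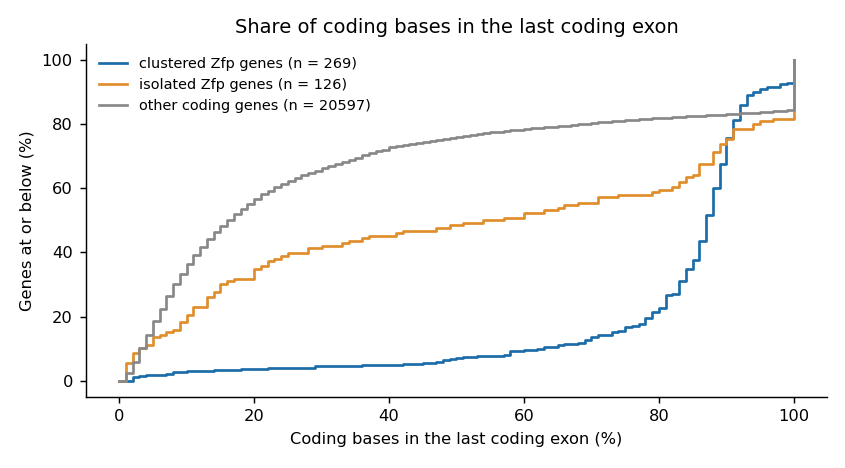
Cumulative share of genes (vertical axis, %) by the percentage of coding bases that lie in the last coding exon (horizontal axis), for clustered Zfp genes, isolated Zfp genes and all other coding genes. The clustered curve stays low until about 80%, and the curve of other genes rises early. The isolated curve lies above both from 1% (5.56% against 2.43% of other genes) to 3%. It lies between them from 4% to 88%, where 71.4% of isolated, 60.2% of clustered and 82.8% of other genes are at or below. All 3 curves step up at 100%, where single-exon coding parts lie.

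The clearest shared feature was an exon size. A coding exon of exactly 127 bases, other than the last, was present in 216 coding members (54.7%) and in 1043 other coding genes (5.06%). Among clustered members 195 of 269 (72.5%) had it, and among isolated members 21 of 126 (16.7%). Exons of 127 bases made up 23.8% of all coding exons before the last in clustered members, 3.45% in isolated members and 0.648% in other genes. This was the commonest size of such exons in the members, and it was chosen after the sizes were seen. Protein sequences were not used here, so whether each of these exons encodes that box was not tested.

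The place of the 127-base exon was as regular as its size. It was the second coding exon in 179 of the 216 members and the third in 32. In 214 of the 216 (99.1%) the coding bases before it were a multiple of 3, with a median of 30 bases. In the other coding genes that had such an exon, 526 of 1043 (50.4%) had a multiple of 3 before it, with a median of 752 bases. It came directly before the last coding exon in 50 members, and 1 exon stood between them in 141. That exon had 61 bases in 52 members, 96 in 36, 99 in 14 and 93 in 9.

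**Figure D4:**
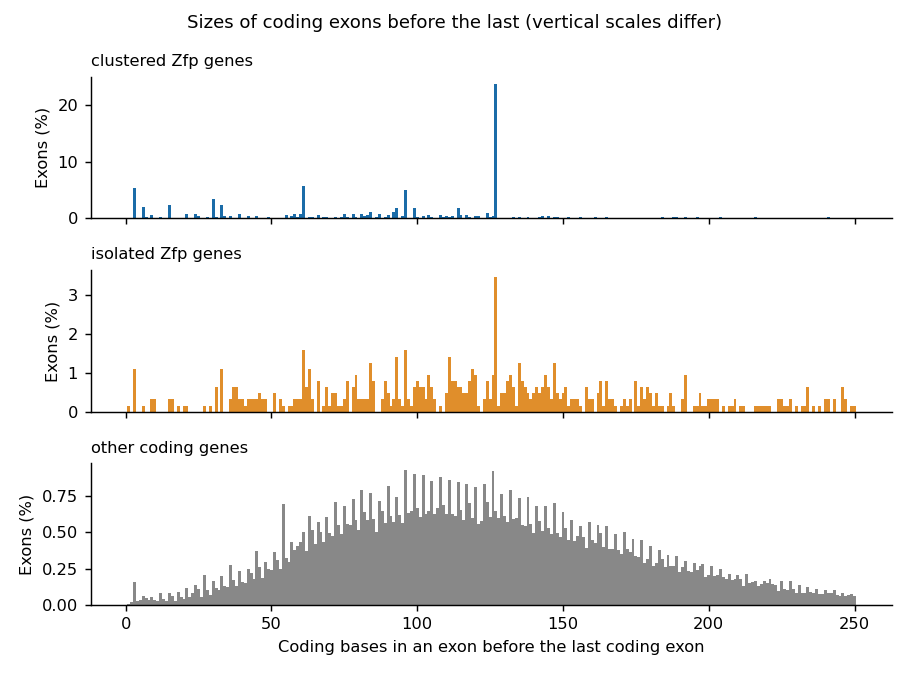
Percentage of coding exons before the last (vertical axes, scales differ) at each size in bases (horizontal axis), for clustered Zfp genes, isolated Zfp genes and other coding genes. Clustered Zfp genes show a single high bar at 127 bases (23.8%) and lower bars at 3, 61 and 96, while other genes form a broad hump in which 127 bases holds 0.648%.

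The order of exon sizes before the last was shared by many members, and some orders belonged to single clusters. The order of 3, 127 and 61 bases was the most frequent, in 33 members (31 clustered, in 12 clusters). The order of 30 and 127 bases was found in 22 members, all clustered, with 11 in the chromosome 17 cluster of 23, 6 in the chromosome 4 cluster from Zfp978 to Zfp933 and 4 in the chromosome 4 cluster from Zfp990 to Zfp981. All 15 members with 6, 127 and 96 bases lay in the chromosome 13 cluster of 24. Of 9 members with 33, 127 and 99 bases, 8 lay in the chromosome 7 cluster from Zfp607b to Zfp36. Among 189 pairs of neighbours in a cluster in which both genes had at least 2 coding exons, 51 (27.0%) had the same sizes before the last, against 2.09% of pairs taken from different clusters.

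Clusters were not all of this kind. In 21 of the 52 clusters every coding member had the 127-base exon, and in 9 clusters none had it. Each group includes a pair with 1 coding member, Zfp184 in the former and Zfp652 in the latter. The chromosome 4 clusters of 9 and of 6 members, and the chromosome 7 cluster of 9 from Zfp141 to Zfp819, were among the former. Zfp819, reported to repress retrotransposons, had coding exons of 72, 127 and 93 bases before the last. Among the latter were the chromosome 7 cluster of 10 from Zfp553 to Zfp646 (127233061 to 127885996), with a median of 2 coding exons, and the chromosome 7 cluster of 6 from Zfp628 to Zfp580 (4915217 to 5053723), with a median of 1. Zfp36 shows that a cluster by distance need not be a family. It encodes tristetraprolin, a CCCH zinc finger protein that destabilises AU-rich mRNAs, and it stood 362668 bases from its nearest member at the end of the Zfp607b cluster, with 24 coding bases before its last coding exon and no 127-base exon. Its relatives Zfp36l1 and Zfp36l2 were isolated, with 94.4% and 96.5% of coding bases in the last coding exon.

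Genes with known functions showed both layouts. Of a list of 20 such genes 7 were clustered and 13 isolated, 6 had the 127-base exon, and the median share of the last coding exon was 68.1%. Zfp809, which silences murine leukaemia proviruses, lay in the chromosome 9 cluster of 5 from Zfp653 to Zfp810, with coding exons of 3, 127, 93, 110 and 712 bases and 13.6% of coding bases in the last. Its longest coding exon is thus not the last. Zfp932, a repressor of endogenous retroviruses, had 6, 127 and 61 bases before a last exon with 87.7%. Zfp445, which acts at imprinted genes together with Zfp57, lay in the chromosome 9 cluster of 3 that ends at Zfp105, with coding exons of 420, 169, 95, 127 and 111 bases before a last exon with 69.2%. Zfp57 itself was isolated on chromosome 17 (37001163 to 37010729), 3369446 bases from the nearest member, with coding exons of 18 and 145 bases before a last exon with 87.1% and no exon of 127 bases. Zfp42 and Zfp281 each had a single coding exon.

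Several isolated genes of the list had many coding exons. Zfp423 on chromosome 8, a partner of Ebf factors in adipocyte commitment, and its relative Zfp521 on chromosome 18 had nearly the same layout. The 4 coding exons before the last were 3215, 85, 132 and 116 bases in Zfp423 and 3353, 85, 132 and 116 in Zfp521, and each last exon held under 1% (0.773% and 0.762%). Zfp462 had 5594 of its 7488 coding bases in the second coding exon. Zfp143, a factor that binds promoters and loop anchors, had 15 coding exons and 4.38% in the last, and Zfp106 had 21 with 1.01%. Zfp207, which encodes a kinetochore and spindle protein, had 12 coding exons and also a 127-base exon, with 41 coding bases before it, which is not a multiple of 3. The members with most exons were Zfp236 (31), Zfp335 (28), Zfp638 (27), Zfp106 and Zfp280d (22 each). The lowest shares in the last coding exon were those of Zfp800 (1 base, 0.0503%), Zfp608 (7 bases, 0.154%) and Zfp654 (8 bases, 0.240%). Beyond the single-exon genes the highest were Zfp62 (2744 of 2745 coding bases) and Zfp11 (99.5%).

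Spans also varied widely. Zfp804b (chromosome 5, 6769030 to 7344378) spanned 575349 bases with 4 coding exons, followed by Zfp385b (406195), Zfp407 (381804), Zfp423 (297786) and Zfp536 (290644), and all 5 were isolated. The shortest were Zfp580 (2192), the pseudogene Zfp389 (2209), Zfp593 (2286), Zfp36 (2445) and Zfp768 (2520). The members farthest from any other were Zfp451 and Zfp142 on chromosome 1, which lay 40751830 bases apart, and Zfp711 on chromosome X, 39172143 bases from Zfp92.

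Transcript variants were more frequent in isolated members. In all, 197 members (48.9%) had more than 1 row, and these were 124 clustered (45.1%) and 73 isolated members (57.0%). Of other coding genes 40.5% had more than 1 row. The mean was 1.95 rows in clustered and 2.53 in isolated members, against 1.93 in other coding genes. Clustered members thus lay close to the mean of other genes. These member values include the 8 symbols without a coding row. In coding members alone the means were 1.97 clustered and 2.56 isolated, and 45.7% and 57.9% had more than 1 row. Zfp207 had 13 rows, Zfp821 and Zfp454 had 11 each, and Zfp62, Zfp788 and Zfp618 had 9 each. Different rows did not always mean different proteins, since 133 members had more than 1 distinct coding part, and Zfp672 had 8 rows with 1 coding part. Zfp966 had 8 rows but 2 distinct exon chains. Of 189 members with at least 2 coding rows, 135 (71.4%) kept the same last coding exon in every coding row and 152 (80.4%) the same stop position, close to the 72.5% and 75.5% of 7971 other coding genes. The same start position of transcription was kept in 79 of 119 clustered (66.4%) and 31 of 70 isolated members (44.3%), against 55.8% of other genes. Every coding row of a gene had to agree, which is harder to meet with more rows, and isolated members had more rows on average. Whether row number accounts for the difference was not tested.

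Promoter windows of 300 bases, from 250 before to 50 after the start, were compared with 1 window per gene. For members the start of the row with the longest coding part was preferred. For other genes the window with the lowest position was taken on either strand, so values of members and other genes rest on unlike choices. The 232 clustered members with a window had a median of 11 CG (lowest 1, highest 51) and the 100 isolated members 19.5 (2 to 59), against 14 in 16517 other coding genes. At least 20 CG were found in 48 clustered members (20.7%), in 50 of the 100 isolated and 36.9% of other genes. No member window lacked CG, while 4.92% of those of other genes did. The split followed the 127-base exon as well. Clustered members with that exon had a median of 10 and those without it 17, and isolated members with it had 15 and those without it 22. Among clusters with at least 4 windows the median ran from 3.5 CG, in the chromosome 4 cluster of 6 (Zfp990 to Zfp981) and the chromosome 2 cluster of 4 (Zfp970 to Zfp931), to 22 in the chromosome 6 cluster of 11.

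**Figure D5:**
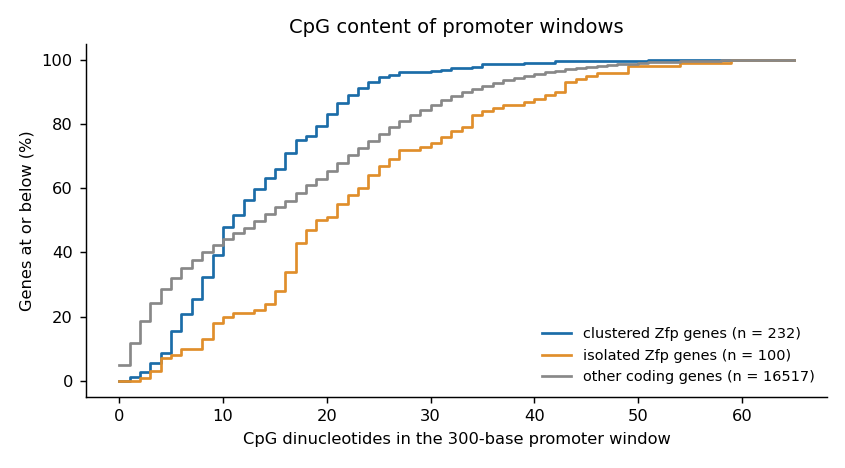
Cumulative share of genes (vertical axis, %) by the number of CG dinucleotides in the 300-base promoter window (horizontal axis), for clustered Zfp genes, isolated Zfp genes and other coding genes. Clustered genes hold fewer CG (median 11) than isolated genes (median 19.5), and fewer clustered genes than other genes have 5 or fewer (15.5% against 32.2%). Windows of other genes were chosen by lowest position, unlike those of Zfp genes.

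Most alike promoters were found on the same chromosome. Of 54943 pairs of windows aligned end to end, 48745 joined different chromosomes. Pairs from different clusters of a single chromosome were not counted over all pairs. Of the 54943 pairs, 106 were identical at 70% or more of 300 bases. Of these, 52 pairs lay in the same cluster, as do 944 (1.72%) of all pairs, and 52 lay in different clusters of the same chromosome, 33 pairs on chromosome 2 and 19 on chromosome 4. The other 2 joined the isolated Zfp950 on chromosome 19 to Zfp968 and Zfp973 on chromosome 2, both at 72.0%. Most pairs within a cluster were below that, and the 944 pairs in the same cluster had a median identity of 53.7%. All other pairs, the 54 alike ones included, had a median of 52.0% and a 99th percentile of 58.0%. No pair from different chromosomes was higher than those of Zfp950. Neighbouring clusters of chromosome 2, which begin at Zfp968, Zfp967 and Zfp970, are separated by gaps of 589903 and 783651 bases, so a limit of 1 Mb joins them. A more distant cluster of chromosome 2, from Zfp120 to Zfp345 (150114407 to 150485063), also gave pairs with each of them. The chromosome 4 pairs came from the clusters that end at Zfp981 and begin at Zfp978, 585486 bases apart.

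The pair Zfp966 and Zfp967 was alike beyond the promoter printed above. They lie on opposite strands (175918283 to 175931100 and 176521004 to 176533821 on chromosome 2), each spans 12818 bases with 8 rows, and each has coding exons of 60, 127, 61 and 1210 bases. Zfp968 has the same 4 coding exon sizes with 4 rows. Zfp965 and Zfp973 have the same first 3 and a last of 709 bases. Zfp955a and Zfp955b, also on opposite strands, share coding exons of 21, 127, 58 and 1432 bases. How reads that map to such copies were assigned is not given in the sources used here, and its part in Pol I signal over these genes was not tested.

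The genes whose products work with KRAB zinc finger proteins had a median of 16.5 coding exons with 5.88% of coding bases in the last, against 7 and 15.9% in all other coding genes. Of 14 such genes 0 had a 127-base coding exon, a size that 5.06% of other coding genes have. Trim28, the corepressor that binds KRAB domains, lay 38435 bases from the nearest Zfp gene on chromosome 7 and had 17 coding exons. Setdb1, which methylates histone H3 lysine 9, had 21 coding exons, and Dnmt1, the maintenance DNA methyltransferase, had 39. In all 5 of the 14 lay under 500 kb from a member, as do 16.8% of other coding genes.

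Other families of clustered genes were laid out differently. Under the same rule 1115 of 1125 Olfr genes (99.1%) and 335 of 343 Vmn1r and Vmn2r genes (97.7%), which encode receptors of smell and pheromones, were clustered. Their largest clusters held 226 and 86 genes, against 24 for Zfp. Olfr and Vmn1r genes had a median of 1 coding exon, whereas Vmn2r genes had 6, with a median of 35.8% of coding bases in the last. None of these families had a gene with a 127-base exon (0 of 1107 Olfr, 0 of 228 Vmn1r and 0 of 115 Vmn2r coding genes). Among genes with other zinc finger names, 9 of 17 Zscan, 5 of 11 Zkscan and 11 of 42 Zbtb genes were clustered. The 127-base exon was seen in 3 of 11 coding Zkscan genes, in 0 of 16 Zscan and in 0 of 41 Zbtb genes. Zscan genes had a median of 3 coding exons with 64.0% of coding bases in the last, Zkscan genes 5 with 54.4% and Zbtb genes 2 with 35.9%.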

How the data were processed

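Pol I CUT&Tag was done in 4 libraries, 2 per group, but the file used here is a 12-column BED annotation of the whole series without header. The score column, as deposited by the authors, is 0 in all 50727 rows. Other columns hold positions, exon numbers, sizes and starts in bases. The submitters' processing notes name mm10, FastQC, Bowtie2, deepTools and bedtools; how the annotation was made is not given in the sources used here. Depth is unknown, and a test between groups, planned if values per library were present, was not run.

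Rows of 1 symbol sharing a base on the same strand were merged into a locus, with positions printed from 1. Gaps under 500000 bases joined members, and a cluster had at least 2. Promoter windows of members (1 per gene, preferring the start of the row with the longest coding part) were aligned globally (match 1, mismatch -1, gap opening -3, extension -0.5, end gaps -0.5) with Biopython 1.88. For each other gene the window with the lowest position on the chromosome was taken, whatever the strand. Identity is identical bases over window length. Python 3.11.15, pandas 2.3.3, numpy 2.4.6 and matplotlib 3.10.9 were used. The cluster and coding-exon routines were tested on simulated data (400 loci and 500 transcripts, 0 differing). Members and lists were chosen with earlier results of these data known. Genes are named by fixed lists and roles, by ends of large clusters and by extreme values; a few others are named after their values were seen, as are the 127-base exon, the promoter comparison and the sequences. Values under other settings were called moved beyond a factor of 1.5. Zinc finger repeats in proteins, planned, were not counted because no protein sequences were used here. Of columns holding values per library, 0 were set aside.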

Additional observations from a re-analysis of the deposited data

How the results depend on the processing

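No paired analysis was possible because no column belongs to a library. Leaving out a replicate, the replicate block, and settings that need protein sequences were not run for the same reason or because no protein sequences were used here. Of 64 alternative values, 53 stayed within 1.5 times the reported value with the same sign, and 0 changed sign. Counting rows in place of symbols gave 860 members. The difference of medians in the last coding exon's share (31.8 percentage points, clustered minus isolated) became 7.81 with a gap limit of 100 kb and 17.4 with at least 3 members per cluster. The difference in median coding exons (-0.5) became 0 with each other gap limit and with at least 3 members, and -1 without chromosome 7. The difference in mean rows (-0.589) became -0.348 when each cluster counted once. The difference in the share with a 127-base exon (55.8 points) ranged from 45.5 to 61.6. The other coding genes with such an exon inside clusters numbered 34 of 272 (12.5%), against 1009 of 20325 (4.96%) outside clusters. Their number was 6 or 54 with limits of 100 kb or 1 Mb, where clusters cover less or more sequence. These counts ask for the exon alone and not for a long last coding exon. Joining with 95 genes of other zinc finger names, taken by name or synonym since the reference table holds no descriptions, put 288 members in clusters.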

Other observations

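Genes under other names shared the layout, as a search chosen after the exon sizes were seen showed. Outside the Zfp names, 68 coding genes (0.330% of them) had a 127-base coding exon and at least 80% of coding bases in the last coding exon, as did 178 Zfp genes. Of the 68, 53 had provisional Gm or Rik names, and 50 (73.5%) lay under 500 kb from a Zfp gene, where 16.8% of other coding genes lie. Chromosome 2 held 15 of them and chromosome 13 held 9. Inside the bounds of the chromosome 2 clusters that begin at Zfp968 and Zfp970, Gm2007, Gm4724 and Gm14325 each had the coding exon sizes 3, 127 and 61 before a last exon with 87.2%. Rsl1, a regulator of sex-limited liver genes, had 36, 127 and 96 bases and lay in the chromosome 13 cluster of 24. Genes of other families were included, as 5 Apol genes on chromosome 15, which encode apolipoproteins L, were among the 68. The counts of clusters given above hold for the name alone.

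Of all members, 17 (4.22%) were also listed outside the assembled chromosomes, in 38 rows on 12 contigs. The same share was not counted for all gene symbols, so it cannot be read as particular to Zfp genes. Zfp57 appeared on 3 such contigs of chromosome 17, with 4 rows on each. On chromosome 4, Zfp987 had loci on 2 contigs, and Zfp600, Zfp933, Zfp979, Zfp985, Zfp988 and Zfp992 on 1 each.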
